A study of Citrus maxima with 6 samples.

Results

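The most abundant transcripts of ripe pummelo pericarp were the 109 of 29406 annotated genes that were chosen by a mean of at least 500 RPKM over all 6 libraries. RPKM is a read number divided by the length of the gene model in kilobases and by the size of the library, so it is a relative level per length. The libraries came from ripe pericarp, the peel of the fruit, of 'Guanxi' pummelo without treatment, with 3 biological replicates of an orange-pericarp mutant (MT1, MT2 and MT3) and 3 of its wild type (WT1, WT2 and WT3). MT arose as a spontaneous bud mutation of the same cultivar and was propagated by grafting, so MT stands for a single mutant clone. Each library was described as a sample pool, and the number of fruits in a pool was not given in the sources used here. Genes carry the identifiers of the sweet orange genome, to which the pummelo reads were mapped.

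In a mature plant organ a small set of genes usually supplies a large part of the mRNA. In fruit peel such genes commonly serve the cuticle, cell walls, stress and defence, and protein synthesis. Because RPKM is a relative unit, a gain of share by 1 very abundant transcript lowers the share that is left for all others, whatever their own amounts. In bulk pericarp, fewer cells of a type and less RNA per cell cannot be told apart.

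Of the 109 genes, 7 (6.42%) were among the 291 genes read here from the study's list of differentially expressed genes, which held 1.73% of all genes tested, and 5 of the 7 had a Swiss-Prot match that gave them a name. The other members are given by identifier. Among the members, Cs9g17750 and Cs9g17800 matched DCR, a cuticle gene described below. The tissue label was also set against 1 annotated oil gland marker, Cs5g22980, a match to (R)-limonene synthase of the peel oil glands, which is not a member. It had 0.0494, 0.0555 and 0.280 RPKM in MT1, MT2 and MT3, against 4.03, 1.68 and 2.76 RPKM in WT1, WT2 and WT3. This oil gland enzyme was thus low in all libraries and lowest in MT. Markers could be named only from the study's list, which was chosen for a difference on these same libraries. Its direction is therefore not independent evidence, and whether oil gland content has a part in the results was not tested.

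The read numbers behind the RPKM values were recovered from their steps. Library totals were 9787390 to 11108186 reads in MT and 9253681 to 10347017 reads in WT. A member had a median of 11873 reads in a library, and 103 of the 109 had at least 1000 reads in every library. Counting error was therefore small beside the spread between replicates for most members. Steady members with few reads can be exceptions. For example, orange1.1t00469 had 881 to 1025 reads and a coefficient of variation of 3.51% in WT. The lowest member mean was 504 RPKM and the median 764 RPKM, and 40 members reached 1000 RPKM and 12 reached 2000 RPKM.

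The members held a smaller share of the summed RPKM in MT than in WT on average, but the groups overlapped. The 109 genes held 32.7%, 28.5% and 33.2% in MT1, MT2 and MT3, against 33.4% in WT1, 31.7% in WT2 and 33.6% in WT3. The means were 31.5% ± 2.59 in MT and 32.9% ± 1.04 in WT (SD, n = 3 each), a difference of -1.43 percentage points. MT2 alone lay below the WT libraries, and without MT2 the difference was 0.06 percentage points. It was 0.22 when members were chosen in MT2 and WT2 and measured in the other 4 libraries, which also leaves MT2 out of the measurement. The same choice in MT1 and WT1 gave -1.89, and in MT3 and WT3 it gave -2.80. With members chosen in the MT libraries only the difference was -0.06, and in the WT libraries only -2.30. MT2 differed by -4.46 percentage points from the 33.0% mean of MT1 and MT3. Since the members were chosen with this share known, these shares are a description without a test.

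The sum joined a single gene that took a larger share in MT to many that took a smaller one. Cs1g07330 was by far the most abundant transcript, with 84185, 86228 and 93255 RPKM in MT1, MT2 and MT3, against 75698, 65932 and 65969 RPKM in WT1, WT2 and WT3. All MT libraries were above all WT libraries, and this gene alone made up 12.8%, 13.2% and 14.1% of summed RPKM in MT, against 11.5%, 10.3% and 9.82% in WT. The other 108 members held 19.9% in MT1, 15.3% in MT2 and 19.1% in MT3, against 21.9% in WT1, 21.4% in WT2 and 23.8% in WT3. All 3 MT libraries were thus below all 3 WT libraries once Cs1g07330 was set apart, with a difference of -4.26 percentage points, or -2.84 without MT2. When Cs1g07330 was also left out of the total, the difference was -4.10 percentage points.

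**Figure D1:**
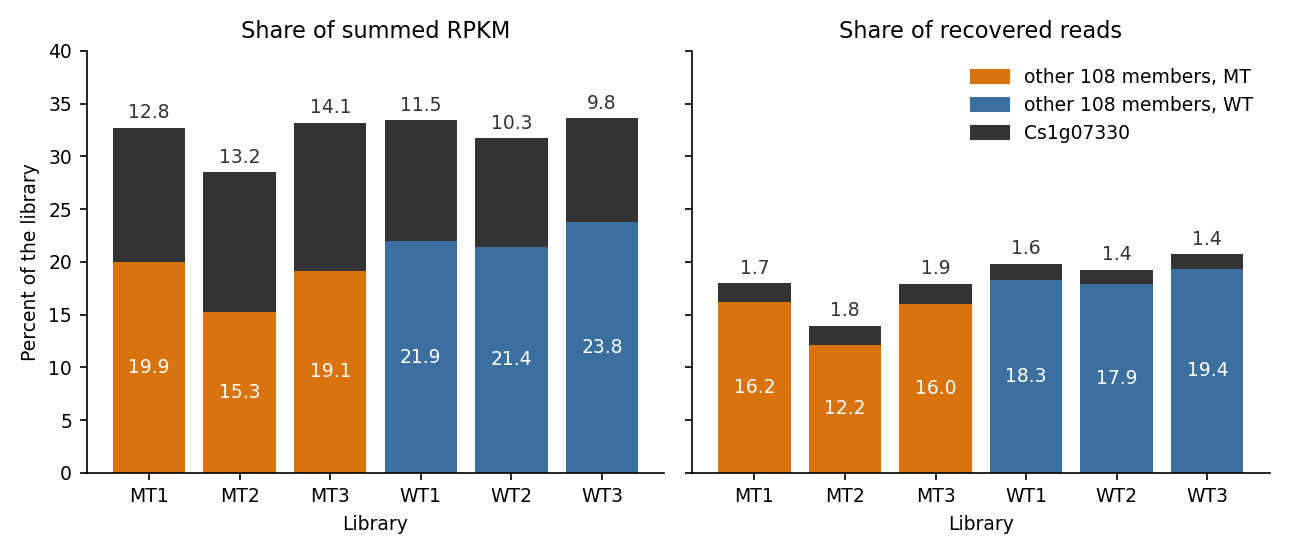
Percent of each library held by the 109 most abundant transcripts, as summed RPKM (left) and as recovered reads (right), for MT1 to MT3 (orange) and WT1 to WT3 (blue), with Cs1g07330 stacked in dark grey. The other 108 members held 15.3% to 19.9% of summed RPKM in MT and 21.4% to 23.8% in WT, whereas Cs1g07330 was larger in every MT library.

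The weight of Cs1g07330 came in part from the length of its model. The division behind its RPKM values was by 207 bp, and in reads it held only 1.75%, 1.79% and 1.94% in MT1, MT2 and MT3, against 1.57%, 1.37% and 1.37% in WT1, WT2 and WT3. Counted in reads, all 109 members held 18.0% in MT1, 13.9% in MT2 and 17.9% in MT3, against 19.8% in WT1, 19.3% in WT2 and 20.7% in WT3. On this scale the groups did not overlap, and the difference was -3.33 percentage points, or -2.001 without MT2. The 7 members with models shorter than 300 bp took 15.3% to 16.0% of summed RPKM in MT and 11.97% to 13.3% in WT, but only 2.12% to 2.25% of reads in MT and 1.67% to 1.85% in WT. Most of this gain was that of Cs1g07330, and 3 of the 7, Cs7g25660, orange1.1t01677 and orange1.1t00469, had a smaller mean share of RPKM in MT. The median member model was 1458 bp long, against 1729 bp over the 16719 genes tested, and members ranged from 153 to 3098 bp.

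Below Cs1g07330 the order of abundance was not the same in the 2 genotypes. Cs9g15430 had 6903, 2425 and 9633 RPKM in MT1, MT2 and MT3, against 16337, 8789 and 19292 RPKM in WT1, WT2 and WT3. It was the next most abundant gene of every WT library and the groups overlapped only because MT3 exceeded WT2. Cs9g02190, the next gene by mean, had 11408, 8189 and 9333 RPKM in MT, against 8252, 5318 and 8882 RPKM in WT. In MT1 and MT2 it exceeded Cs9g15430, while in MT3 and in all WT libraries it did not.

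The remaining genes of the 12 most abundant lay within a narrower range, and their groups overlapped. Cs7g10980 had 4354, 3601 and 4830 RPKM in MT, against 5037, 4119 and 4810 RPKM in WT. Cs6g11770 had 4920, 7017 and 3381 RPKM in MT, against 2759, 3974 and 3833 RPKM in WT. Cs6g11770 was highest in MT2, the reverse of most members. Cs9g04210 had 3841, 4757 and 4216 RPKM in MT, against 2817, 3024 and 3967 RPKM in WT, and was likewise highest in MT2. Cs1g20580 had 4514, 3054 and 2991 RPKM in MT, against 3035, 4342 and 3448 RPKM in WT, with the genotypes intermixed. The levels of Cs7g25660 were 3510, 2452 and 3206 RPKM in MT, against 3678, 2955 and 3540 RPKM in WT. In Cs7g10980 and Cs7g25660 MT2 was the lowest of the 6 libraries.

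In 4 others of the same 12, MT2 was far below the rest. Cs5g27060 had 4531, 1831 and 2812 RPKM in MT1, MT2 and MT3, against 2996, 4117 and 4613 RPKM in WT. MT1 stood with the 2 higher WT libraries and MT2 and MT3 stood below all of WT. Cs2g06620 had 2505, 1496 and 3495 RPKM in MT, against 4501, 2672 and 4391 RPKM in WT. Here MT3 lay inside the WT range and MT1 and MT2 below it. The transcript orange1.1t04376 had 3146, 943 and 2087 RPKM in MT, against 3674, 3145 and 2701 RPKM in WT, and Cs4g19980 had 1327, 748 and 3360 RPKM in MT, against 3500, 1994 and 3823 RPKM in WT. In both, MT2 was the lowest of the 6 libraries by a wide margin. As a group the 12 held 20.5%, 18.8% and 21.5% of summed RPKM in MT, against 20.0%, 17.2% and 19.2% in WT, and the 97 members below them held 12.2%, 9.66% and 11.7% in MT, against 13.4%, 14.5% and 14.4% in WT. The 97 less abundant members were therefore lower in each MT library than in any WT library, and the first 12 were not.

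**Figure D2:**
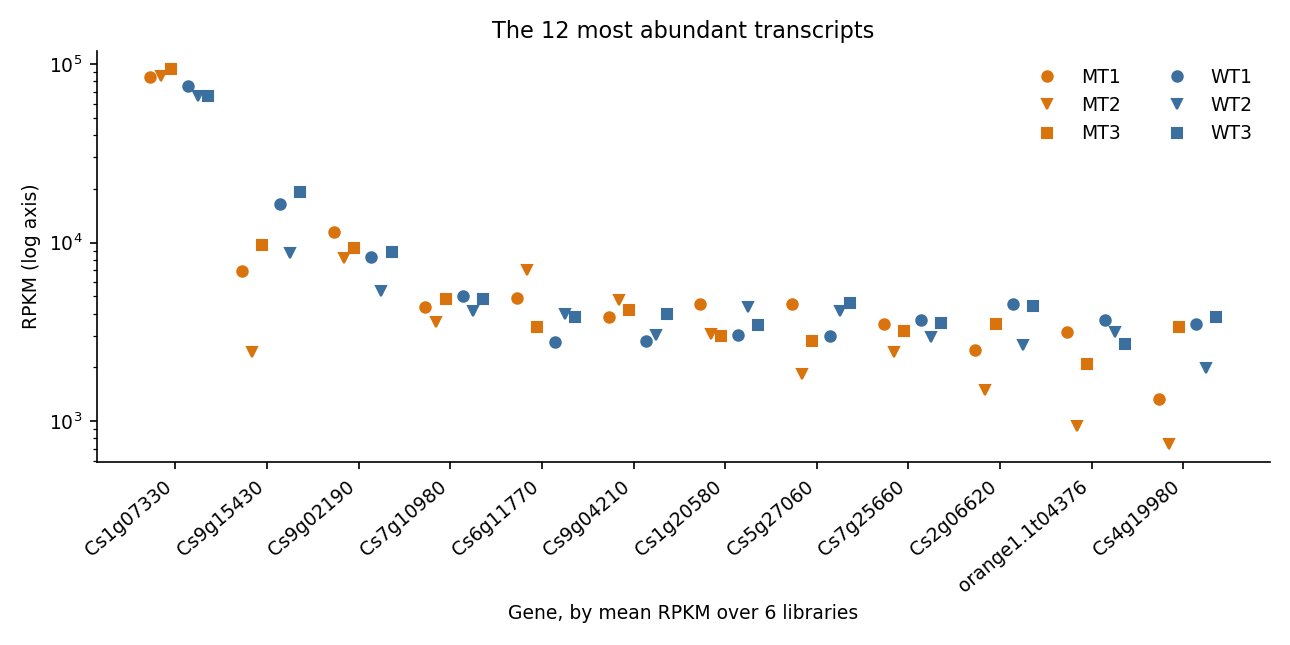
RPKM (log axis) of the 12 most abundant transcripts in MT1 to MT3 (orange) and WT1 to WT3 (blue), 1 point per library, with circles, triangles and squares for replicates 1, 2 and 3. Cs1g07330 lies between 65932 and 93255 RPKM with MT above WT. MT2 is the lowest point for Cs9g15430, Cs7g10980, Cs5g27060, Cs7g25660, Cs2g06620, orange1.1t04376 and Cs4g19980.

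Of the 109 members, 75 had a smaller mean share in MT than in WT, and their differences sum to -5.76 percentage points. The other 34 gained 4.33 percentage points in sum, of which all but 1.501 belonged to Cs1g07330. The loss was concentrated. The 12 genes with the most negative differences made up -3.36 percentage points, or 58.2% of the summed loss, and Cs9g15430 alone accounted for 22.2% of it. The 12 together held 3.48%, 1.56% and 4.20% of summed RPKM in MT, against 6.81%, 5.23% and 7.27% in WT.

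Most of these 12 genes were of 2 kinds, and the exceptions were orange1.1t04376 and Cs5g27060, whose MT1 level lay inside the WT range. The first kind was low in all 3 MT libraries. Cs2g16260, a match to an isoflavone reductase homolog, belongs by that match to a family of NADPH-dependent reductases of phenylpropanoid metabolism, and it had 532, 378 and 375 RPKM in MT1, MT2 and MT3, against 2347, 3265 and 2133 RPKM in WT1, WT2 and WT3. Every WT library was far above every MT library, and the log2 fold change was -2.73 relative to the median gene (SE 0.28), with an adjusted p of 0.0532 by limma. Cs3g21170, which had no Swiss-Prot match, had 469, 905 and 284 RPKM in MT, against 2947, 3448 and 2247 RPKM in WT. Its groups did not overlap either, with MT2 the highest MT library, and the log2 fold change was -2.67 (SE 0.45, adjusted p of 0.0723 by limma). These were the only members whose loss in MT had an adjusted p under 0.1.

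The second kind was lower in MT1 and lowest in MT2, with MT3 near or within the WT range. Cs9g03570, a match to the major allergen Pru ar 1 of apricot, a member of the PR-10 defence protein family, had 339, 112 and 1032 RPKM in MT, against 1702, 1124 and 1726 RPKM in WT. MT3 came close to WT2, and the log2 fold change of -2.28 had an SE of 0.73 (adjusted p of 0.173 by limma). Cs9g17750, a match to the BAHD acyltransferase DCR, which in Arabidopsis is needed to build the cutin of the cuticle, had 711, 97.4 and 978 RPKM in MT, against 1603, 1229 and 1630 RPKM in WT. Its groups did not overlap, but MT ranged widely, and the log2 fold change of -2.003 had an SE of 0.80 (adjusted p of 0.234 by limma). Cs9g17800, a further member with a DCR match, had 655, 97.3 and 972 RPKM in MT, against 1564, 1182 and 1383 RPKM in WT. The levels of both DCR matches were nearly equal in MT2 and MT3. Their sequences were not compared here, and if they share sequence the counting of unambiguous reads makes both levels uncertain.

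Cs9g05030, a match to the chloroplastic acyl carrier protein 1, which holds the growing chain in plastid fatty acid synthesis, had 767, 360 and 1304 RPKM in MT, against 1650, 1441 and 1932 RPKM in WT. The order MT2, MT1, MT3 recurred and MT3 was just below WT2, with a log2 fold change of -1.37 (SE 0.47, adjusted p of 0.195 by limma). Cs5g25740 had 35.1, 12.3 and 569 RPKM in MT, against 1288, 373 and 1782 RPKM in WT. It was the widest-ranging member, with MT3 above WT2, and its log2 fold change of -4.04 had an SE of 1.32 (adjusted p of 0.172 by limma). Cs2g29230 had 1643, 865 and 1935 RPKM in MT, against 2440, 1874 and 2577 RPKM in WT, with MT3 inside the WT range. The 5 named matches, Cs3g21170 and Cs4g09550 were in the study's list, which was chosen on these same libraries, so their direction is not independent evidence.

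On the other side, Cs4g09550, which had no Swiss-Prot match, had 1196, 1176 and 480 RPKM in MT1, MT2 and MT3, against 67.0, 112 and 187 RPKM in WT1, WT2 and WT3. All MT libraries were above all WT libraries, MT3 the least, with a log2 fold change of 2.81 relative to the median gene (SE 0.47, adjusted p of 0.0657 by limma). Its share grew by 0.13 percentage points, less than those of Cs9g02190 (0.33), Cs6g11770 (0.24) and Cs9g04210 (0.15), whose groups overlapped. Cs6g08600 had 1639, 1048 and 661 RPKM in MT, against 497, 860 and 616 RPKM in WT.

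**Figure D3:**
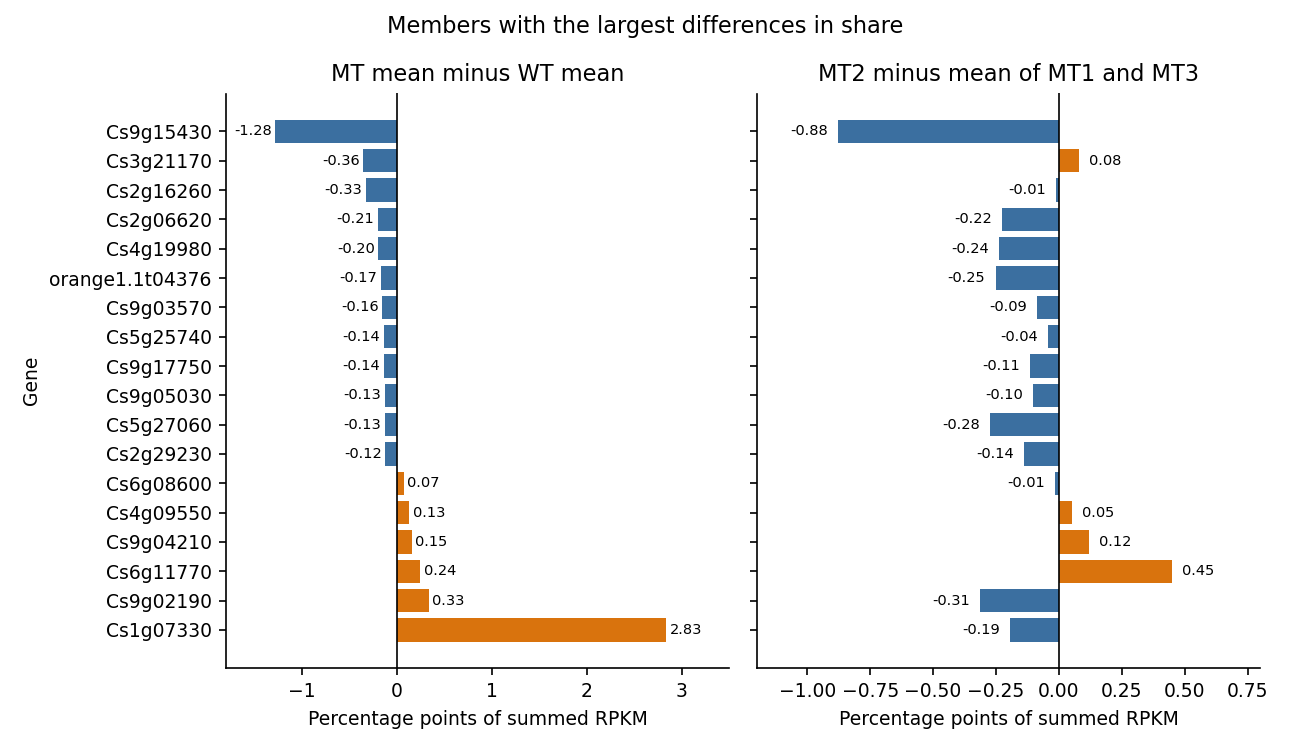
Difference in share of summed RPKM (percentage points) for the 12 members with the most negative and the 6 with the most positive MT minus WT difference, as MT mean minus WT mean (left) and as MT2 minus the mean of MT1 and MT3 (right). Cs9g15430 (-1.28) and Cs1g07330 (2.83) stand out on the left, and on the right Cs3g21170 and Cs2g16260 lie near 0 while Cs9g15430 is again the most negative.

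Whether members differed between MT and WT was tested by limma over all 16719 genes with a mean of at least 0.3 RPKM. No member passed an adjusted p of 0.05, that is 0 lower and 0 higher in MT, where 0.0179% of all genes tested passed in each direction. At an adjusted p of 0.1, 2 members were lower in MT and 1 was higher, against 0.538% lower and 2.02% higher among all genes. At an unadjusted p of 0.05, 12 members were lower and 2 higher in MT, against 4.93% and 16.9% of all genes. By limma voom on the recovered reads, 0 members passed an adjusted p of 0.05. The study's list was called by DESeq at an adjusted p under 0.05 on the same libraries. It held 7 members (6.42%), against 1.73% of all genes tested, so the outcome differed between the tests. With 3 libraries against 3, the smallest two-sided exact permutation p for a single gene is 0.1.

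The variance trend of limma bore on the top of the range. For Cs1g07330 the SE was 2.96 with the trend and 0.14 without it, and its log2 fold change of 0.20 relative to the median gene had adjusted p values of 0.957 and 0.230, both by limma. Under quantile normalization its value relative to the median gene was -0.00325. That method gives the top gene of every library the same level, so it cannot show a direction for this gene. Over the members the SE with the trend was a median 1.09 times that without it, and 92 of 109 had a larger SE. Without the trend 1 member, Cs2g16260, passed an adjusted p of 0.05 (0.0376 by limma).

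MT3 also bore on the calls. When MT3 was left out, 8 members were lower in MT and 1 higher at an adjusted p of 0.05 by limma, against 1.88% and 3.28% of all genes tested. The 8 were Cs2g16260, Cs3g21170, Cs9g03570, Cs5g25740, Cs3g15740, Cs6g12880, Cs8g04920 and Cs2g01760, and the gene that was higher was Cs4g09550. Some of these names fall outside the naming rule and are given because they make up these counts. Cs3g15740 had 263, 152 and 1029 RPKM in MT, against 830, 789 and 2024 RPKM in WT. Cs6g12880 had 271, 87.9 and 1179 RPKM in MT, against 1213, 815 and 903 RPKM in WT. In both genes MT3 lay inside the WT range and MT1 and MT2 lay far below it.

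Over the whole set the shift was to the lower side. The median member had a log2 fold change of -0.26, whereas the median of all genes tested was 0.15 higher in MT. Relative to that median gene the median member was at -0.41, and 87 of 109 members were below it. All MT libraries lay below all WT libraries for 18 members (16.5%), against 5.36% of all genes tested, and above for 3 members (2.75%), against 23.3%. Members were chosen by a mean over both genotypes, so some entered only through the genotype where they were high. Cs2g16260, with a mean of 428 RPKM in MT, and Cs4g09550, with 122 RPKM in WT, are examples. The counts are therefore a description of the set as chosen. When the libraries were rescaled by median ratios, 35 members (32.1%) were lower without overlap, against 13.0% of all genes tested, and 2 (1.83%) were higher, against 13.3%. The split of members to the lower side was thus present under both scalings. Rescaling centres the libraries on the typical gene, which by itself brings the calls over all genes close to an even division. Without MT3 the 18 became 46 (42.2%), against 13.8% of all genes tested, and without WT2 they became 38 (34.9%), against 13.1%. They became 25 without MT1, 21 without WT1, and 19 without MT2 or without WT3. For these the share over all genes was not computed. Leaving out a library can only keep or raise such a count, but the size of the rise depended on the library.

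Of these 18, 6 were in the study's list (Cs3g21170, Cs2g16260, Cs9g03570, Cs9g17750, Cs9g17800 and Cs9g05030). The other 12 had log2 fold changes of -0.78 to -0.33 relative to the median gene and adjusted p values of 0.170 to 0.642 by limma. The 3 that were higher without overlap were Cs1g07330, Cs4g09550 and, outside the naming rule, Cs6g05890. Cs6g05890 had 710, 896 and 464 RPKM in MT, against 365, 446 and 412 RPKM in WT. With fewer libraries the 3 became 14 (12.8%) without MT3, against 32.2% of all genes tested, 7 (6.42%) without MT1, against 33.4%, and 7 without WT2, against 28.3%. They became 6 (5.50%) without WT3, against 28.0% of all genes tested, and 5 (4.59%) without MT2, against 25.4%.

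The lower side was not particular to the limit of 500 RPKM. Of the 941 genes with means of 100 to under 500 RPKM, 13.3% were lower in MT without overlap and 11.2% higher, and their share of summed RPKM was 1.57 percentage points smaller in MT. After rescaling 30.7% of them were lower, close to the members' 32.1%. Genes of 15 to under 100 RPKM gained 1.77 percentage points in MT, those of 3 to under 15 RPKM gained 0.97 and those of 0.3 to under 3 RPKM gained 0.23. Since the shares of a library add up to a fixed total, these gains and losses are not separate results.

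**Figure D4:**
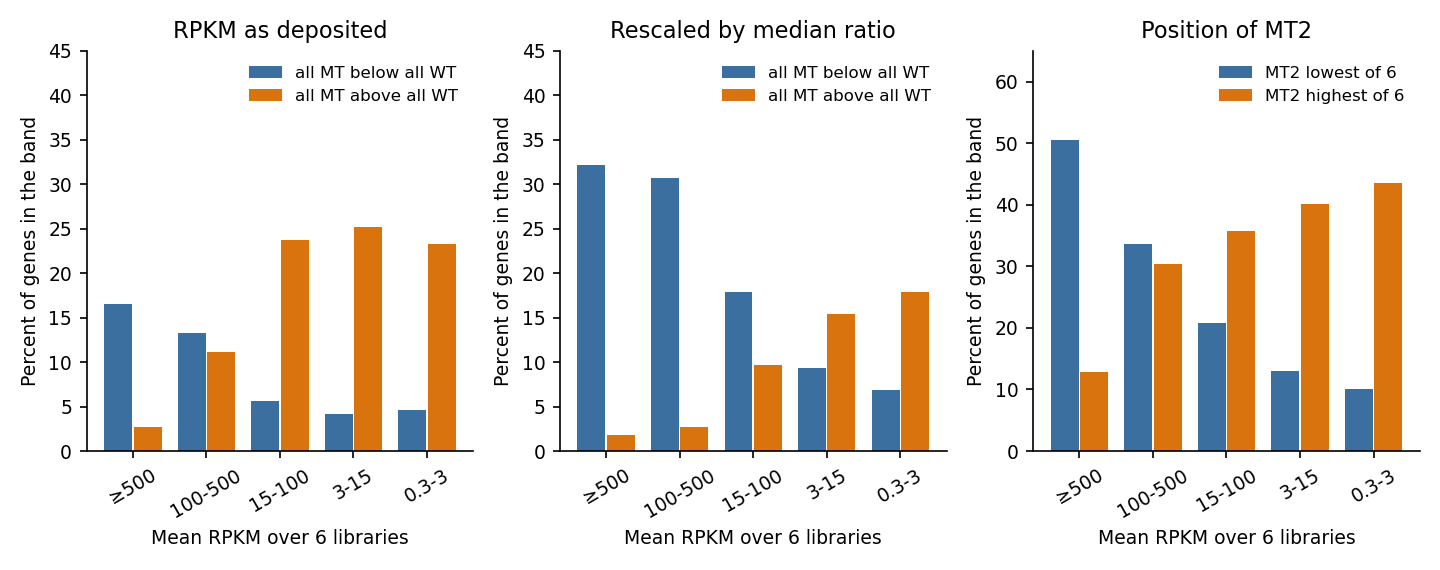
Percent of genes in bands of mean RPKM with all MT libraries below (blue) or above (orange) all WT libraries, as deposited (left) and rescaled by median ratios (middle), and with MT2 as the lowest or highest of 6 libraries (right). At 500 RPKM and above 16.5% were lower and 2.75% higher as deposited, and MT2 was the lowest library for 50.5% of genes in that band and 10.1% of genes of 0.3 to under 3 RPKM.

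MT2 stood apart within MT. It was the lowest of the 6 libraries for 55 members (50.5%), against 16.4% of all genes tested, and the highest for 14 members (12.8%), against 38.8%. In MT2, 75 members had a smaller share than in the mean of MT1 and MT3, with differences that sum to -5.97 percentage points, and 34 had a larger one, with a sum of 1.51. The 6 most negative were Cs9g15430 (-0.88), Cs9g02190 (-0.31), Cs5g27060 (-0.28), orange1.1t04376 (-0.25), Cs4g19980 (-0.24) and Cs2g06620 (-0.22), and they made up 36.5% of the summed loss. All 6 were among the 12 most abundant transcripts. All but Cs9g02190 were also among the 12 most negative in the MT minus WT difference, whereas Cs9g02190 gained share in MT as a whole.

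In relative terms the low values of MT2 went deeper in other genes. In MT2, 27 members (24.8%) were under 0.5 of their mean in MT1 and MT3, against 5.48% of all genes tested, at 4.08% to 49.9% of that mean. These 27 held 5.14%, 2.08% and 6.32% of summed RPKM in MT1, MT2 and MT3, against 8.45%, 6.54% and 9.28% in WT1, WT2 and WT3. They account for -3.66 percentage points of the low share of MT2, and MT2 was the lowest of the 6 libraries in all 27. In 20 of them MT1 was below MT3, and in 18 MT3 was within the WT range. The order from low to high was MT2, MT1, MT3 in 20 of the 27, with MT3 within the WT range in 15 of these and below every WT library in 4. Since the 27 were chosen for a low MT2, its place below MT1 and MT3 was largely fixed by that choice. The places of the MT libraries against WT and of MT1 against MT3 were not fixed by it, though it may have favoured them. MT3 was within the WT range for 42.6% of all genes tested. The share of other genes with MT1 below MT3 was not computed.

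**Figure D5:**
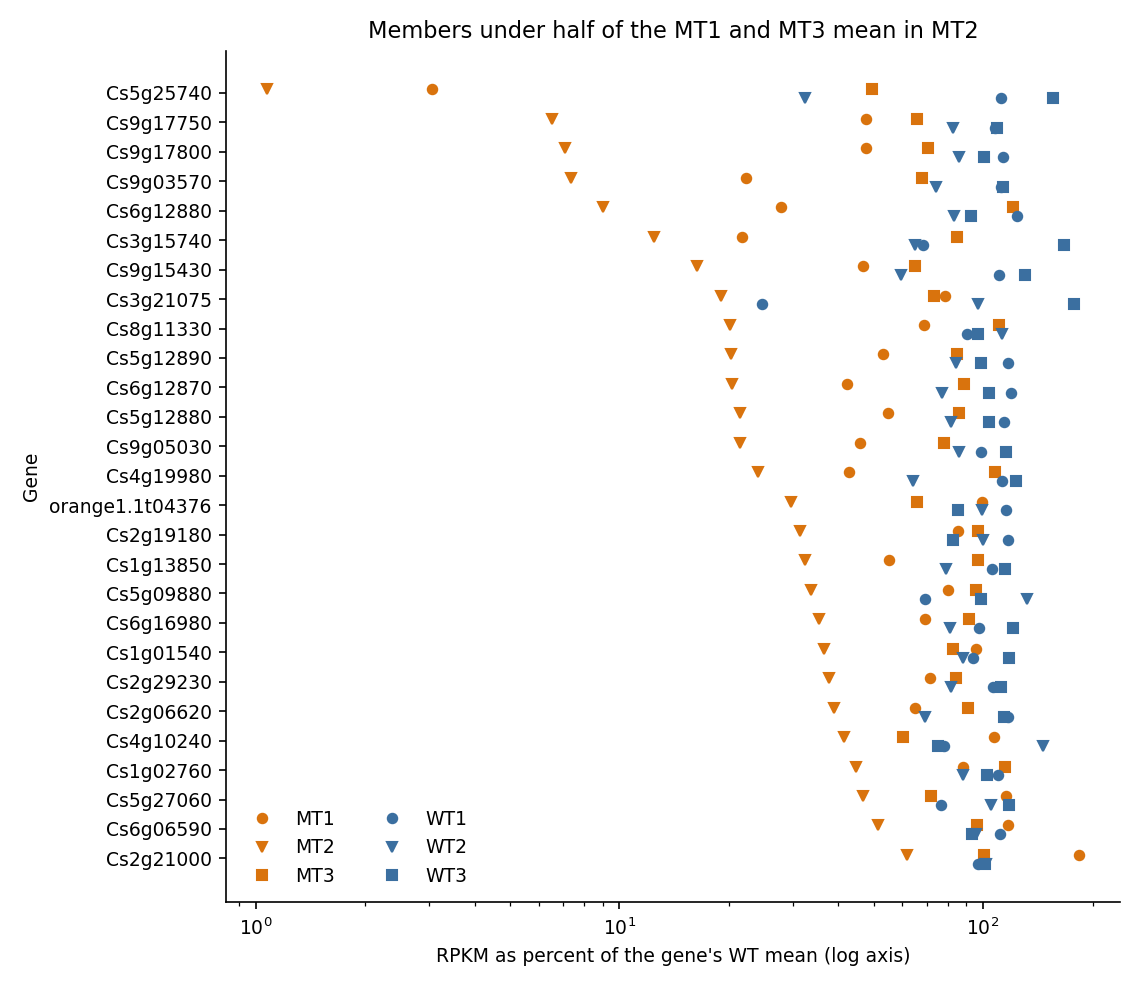
RPKM as percent of the gene's WT mean (log axis) for the 27 members whose MT2 value was under 0.5 of the mean of MT1 and MT3, with MT1 to MT3 in orange and WT1 to WT3 in blue. MT2 is the leftmost point in all 27 genes, and MT3 is within the WT range for 18 of the 27, against 42.6% of all genes tested.

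Each MT library was also set against WT by itself. MT2 was below every WT library for 65 members (59.6%), against 22.2% of all genes tested, MT1 for 51 members (46.8%), against 23.1%, and MT3 for 36 members (33.0%), against 13.7%. MT3 was within the WT range for 59 members (54.1%), against 42.6% of all genes tested, MT1 for 31 (28.4%), against 38.2%, and MT2 for 18 (16.5%), against 26.4%. The coefficient of variation was larger in MT than in WT for 89 of 109 members (81.7%), against 57.0% of all genes tested, with member medians of 28.9% in MT and 17.0% in WT. The median was also larger in MT among genes of 100 to under 500 RPKM, at 18.4% in MT and 11.6% in WT. The number of genes needed to reach 25% of summed RPKM was 30, 54 and 28 in MT1, MT2 and MT3, against 30, 47 and 34 in WT1, WT2 and WT3. To reach 50% it was 523, 664 and 539 in MT1, MT2 and MT3, against 482, 507 and 466 in WT1, WT2 and WT3, so MT2 needed the most genes at both levels.

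Against this, some members kept nearly the same level throughout. The 3 with the smallest coefficients of variation were Cs9g13060, orange1.1t00469 and Cs5g27570. Cs9g13060 had 649, 543 and 609 RPKM in MT, against 617, 599 and 660 RPKM in WT. The transcript orange1.1t00469 had 542, 583 and 684 RPKM in MT, against 647, 605 and 637 RPKM in WT, and Cs5g27570 had 1993, 1603 and 1989 RPKM in MT, against 1841, 1793 and 1986 RPKM in WT. In all 3 the genotypes overlapped. Cs2g20010, outside the naming rule, showed the opposite of most members, with 472, 1201 and 444 RPKM in MT, against 519, 309 and 565 RPKM in WT, and only MT2 was high.

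At the limit of the set, the last members were Cs1g02760 and Cs2g24290, each with a mean of 505 RPKM, and Cs2g28210 with 504 RPKM. The first genes outside were Cs5g02340 with 498 RPKM, Cs3g26640 with 497 RPKM and Cs8g06360 with 493 RPKM. When the limit was set at 300 or 1000 RPKM, the share difference was -2.28 or -0.31 percentage points and that of MT2 from MT1 and MT3 was -4.73 or -3.56. Most of the low share of MT2 was therefore held by the members above 1000 RPKM, while the difference between genotypes grew as less abundant genes were added.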

How the data were processed

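Pericarp mRNA of 3 MT and 3 WT libraries was sequenced on an Illumina platform. The authors mapped reads to the sweet orange genome, and the submitters' processing notes name Bowtie2. They kept uniquely mapped reads and deposited RPKM values of 29406 genes, and all 6 columns were used. Library totals, model lengths and whole reads were recovered from the RPKM steps for 23454 of the 23454 genes above 0 (within 0.005 reads). Counting intervals cover counting error only.

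The 109 members and all lists were chosen with earlier results of these data known. limma 3.58.1 (R 4.3.3) was fitted to log2(RPKM + 0.5) with eBayes and a trend, genotype as the only term, for genes with a mean of at least 0.3 RPKM, with Benjamini-Hochberg adjustment over all 16719. Fold changes are on this scale, which understates low genes, and are MT minus WT less the median gene's 0.15, whereas SE and p belong to the unshifted test. The script was tested on simulated data. Genes were named by rule, namely the 12 highest means, the 12 most negative and 6 most positive differences in share, the 6 lowest in MT2, those past an adjusted p of 0.05, those named by the study, the 3 on each side of 500 RPKM and the 3 of smallest variation. Alternatives were other pseudocounts, filters, scalings, fits, member limits and selections, the replicate block, limma voom and leaving out single libraries. Functional lists and markers were applied only to identifiers that the study annotates.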

Additional observations from a re-analysis of the deposited data

How the results depend on the processing

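Under limma at an adjusted p of 0.05, 0 members were lower in MT, but 2 with array weights, 2 with the replicate block, 1 without the trend, 1 with robust eBayes, 1 with a minimum of 3 RPKM, 1 with a pseudocount of 0.1, 2 at an adjusted p of 0.1, and 0 to 8 when 1 library was left out. The members higher in MT numbered 0, but 1 with array weights, 1 at an adjusted p of 0.1 and 0 to 1 when 1 library was left out. In the replicate block the 2 members were Cs2g16260 and Cs3g21170. Deviations of same-numbered libraries correlated at -0.0458, 0.1933 and 0.1576. Differently numbered libraries were not compared in this way, so the values cannot decide whether replicate numbers paired the samples. limma voom gave 0 in each direction, also with median-ratio library sizes, a setting chosen after seeing the data. Members lower without overlap numbered 18 of 109, but 35 with median ratios and 19 to 46 when 1 library was left out. They numbered 39 of 239 at a limit of 300 RPKM and 8 of 40 at 1000 RPKM. Those higher without overlap numbered 3 of 109, but 10 of 239 at 300 RPKM, 1 of 40 at 1000 RPKM and 3 to 14 when 1 library was left out. As deposited and with all libraries, 5.36% of all genes tested were lower without overlap and 23.3% higher.

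The share difference of -1.43 percentage points was -4.10 without the most abundant gene in the sum and -3.61 without the 10 most abundant. It was -2.29 to 0.06 when 1 library was left out, -0.06 with members chosen in MT only and -2.30 in WT only. With members chosen in MT1 and WT1, MT2 and WT2 or MT3 and WT3 and measured in the other 4 libraries, it was -1.89, 0.22 and -2.80. The share of reads differed by -4.01 to -2.001 when 1 library was left out. Quantile normalization turned the sign of 6 of 28 named genes, Cs1g07330 (-0.00325), Cs1g20580 (0.028), Cs5g27570 (0.47), Cs7g25660 (0.11), Cs9g13060 (0.13) and orange1.1t00469 (0.092). For Cs1g07330 this follows from the method, which sets the top gene of every library to the same level. For the rest the cause was not tested. The other 526 of 532 values of named genes under alternatives kept their direction. For most members the precision is limited by 3 libraries per genotype and a single mutant clone, not by reads.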
